A study of Mus musculus with 4 samples.

Results

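The transcripts of 9 genes that store, move and release iron were followed in single microglia and related myeloid cells of the mouse brain. They were the ferritin genes Ftl1 and Fth1, the ferritin receptor gene Ncoa4, the transferrin receptor gene Tfrc, the metal-ion importer genes Slc11a1 and Slc11a2, the exporter gene Slc40a1 and the haem oxygenase genes Hmox1 and Hmox2. They were taken by symbol and not by their values, and all 9 were found among the 28692 genes of the count tables, each with at least 1 unique molecular identifier (UMI) in every library. The data were 4 single-cell libraries, made with a 10x Genomics kit that reads the 3′ ends of transcripts, from the cortex and hippocampus of male C57BL/6J mice 90 days old, 1 mouse per library. Every mouse had received PBS through the tail vein, 24 h before sacrifice per the labels, and every brain was dissociated cold in a Dounce homogenizer, so the series holds 1 group of 4 libraries and no treated group; the libraries are called replicates 1 to 4, numbers that name them in deposit order only. Cells had been sorted by flow cytometry for CD45 and CD11b, with CX3CR1 also named for this dataset in the study's sample list, so levels describe the cells that passed that sort and not the whole tissue. With at least 400 detected genes and at most 10% mitochondrial UMIs required, 13002 of 13138 barcodes were kept, 2576 to 3692 per library, with a median of 1905 to 2936 UMIs per cell.

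Inside a cell, iron that is not in use is held in ferritin, a hollow shell built from heavy chains, which oxidise iron, and light chains, which help to pack it. Iron enters on transferrin through the transferrin receptor or as released haem, leaves acidic vesicles through the importers of the SLC11 family, and leaves the cell through ferroportin, the only iron exporter known in mammals. Macrophages and microglia take in iron with the debris and red cells they clear, break haem open with the haem oxygenases, and store or export what is set free. Much of this control acts on messenger RNA already made: iron regulatory proteins bind hairpins called iron-responsive elements, and in iron-poor cells they block translation of ferritin and ferroportin and protect the transferrin receptor transcript from decay, so transcript counts do not give protein levels for these genes.

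These hairpins are shown for Ftl1, Fth1, Slc40a1 and Tfrc, the members in which the strict pattern used here was matched. A hairpin was searched for on the transcript strand as a single unpaired C, a stem of 5 bases, the loop CAGTGN and 5 bases that pair back with the stem, with G and T allowed to pair, and each match is printed 5′ to 3′ with its flanks and with the 6 loop bases in capitals (GRCm38, GENCODE annotation).
Ftl1, in the 5′ UTR, chr7:45459780-45459806, minus strand: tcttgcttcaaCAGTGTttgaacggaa
Fth1, in the 5′ UTR, chr19:9982733-9982759, plus strand: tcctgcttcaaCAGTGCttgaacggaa
Slc40a1, in the 5′ UTR, chr1:45925466-45925492, minus strand: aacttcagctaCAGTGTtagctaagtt
Tfrc, in the 3′ UTR, chr16:32631220-32631246, plus strand: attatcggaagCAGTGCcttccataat
Tfrc, in the 3′ UTR, chr16:32631599-32631625, plus strand: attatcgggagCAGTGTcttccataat
Tfrc, in the 3′ UTR, chr16:32631664-32631690, plus strand: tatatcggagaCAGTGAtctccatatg
Tfrc, in the 3′ UTR, chr16:32631711-32631737, plus strand: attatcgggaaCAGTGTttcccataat
The 5′ UTR match was present in 3 of the 9 members and in 31 of 20916 genes with an annotated 5′ UTR (0.148%). The 3′ UTR match was present in 1 of 9 members, Tfrc, at 4 places, and in 129 of 21039 genes with a 3′ UTR (0.613%). No match to these letters was found in the UTRs of Ncoa4, Slc11a1, Slc11a2, Hmox1 or Hmox2. The pattern allows no unpaired base within the 5-base stem, so an element of another form would be missed. A missing match therefore does not show that a member lacks such an element. A match is a match of letters and was not tested as a binding site.

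Ferritin dominated the group. Levels are given as UMIs of the gene per 1000000 UMIs of a library (counts per 1000000, CPM). Each UMI marks 1 transcript end, so levels are not divided by the length of a gene. Capture and read assignment may still differ between genes, which was not tested, so ratios between members are ratios of UMIs. Fth1, the heavy chain gene, was at 2761, 2823, 2322 and 2464 CPM in replicates 1 to 4, a mean of 2593 ± 239 (SD, n = 4), and ranked 30 among all genes. Ftl1, the light chain gene, was at 2335, 2480, 2108 and 2200 CPM, a mean of 2281 ± 162, rank 34. In each library Fth1 was above Ftl1: the ratio of Ftl1 to Fth1 UMIs was 0.846, 0.878, 0.908 and 0.893. Both genes have many processed copies in the mouse genome, and how reads shared with those copies were assigned is not given in the sources used here, so their levels carry that uncertainty.

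Ncoa4, the receptor that delivers ferritin to autophagy, stood at the other end. It was at 5.67, 4.44, 5.48 and 5.11 CPM, a mean of 5.17 ± 0.54, and only 168 UMIs were counted in all libraries. Tfrc, the receptor through which transferrin-bound iron is taken up, was lower still, at 2.98, 3.02, 2.57 and 2.56 CPM (mean 2.78 ± 0.25, 93 UMIs). The 4 libraries of each gene lay within the counting error of such small numbers.

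Between these extremes lay the transporters and the haem oxygenases. Slc11a1, the importer of phagosomes and lysosomes in macrophages, was at 167, 180, 169 and 176 CPM (mean 173 ± 6.19). Its relative Slc11a2, the importer used by most other cells, was at 15.9, 15.0, 20.03 and 16.7 CPM (mean 16.9 ± 2.2), so Slc11a1 UMIs exceeded those of Slc11a2 in every library, by 10.5, 12.01, 8.42 and 10.6 times. Slc40a1, which encodes ferroportin, was at 165, 156, 170 and 146 CPM (mean 159 ± 10.7), and its ratio to Tfrc was between 51.6 and 66.3. That ratio rests on 15 to 34 Tfrc UMIs per library. Hmox2, the haem oxygenase made constitutively in most cells, was at 190, 208, 199 and 188 CPM (mean 196 ± 8.97). Hmox1, the inducible one, was at 53.0, 46.6, 40.6 and 51.8 CPM (mean 48.0 ± 5.67), and Hmox2 exceeded it 3.59 to 4.89 times.

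**Figure D1:**
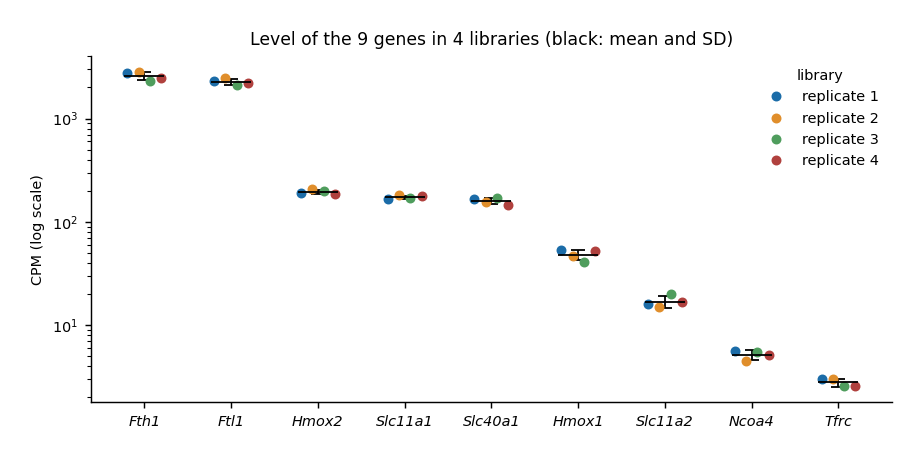
Level of each of the 9 genes in the 4 libraries, in CPM on a log axis, with 1 point per library and the mean ± SD (n = 4). Fth1 and Ftl1 lie above 2000 CPM in every library, Hmox2, Slc11a1 and Slc40a1 between 146 and 208 CPM, and Ncoa4 and Tfrc below 6 CPM.

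The order of the means was Fth1, Ftl1, Hmox2, Slc11a1, Slc40a1, Hmox1, Slc11a2, Ncoa4, Tfrc. The ranges over the libraries overlapped between Fth1 and Ftl1 and between Slc11a1 and Slc40a1, and no other neighbours in that order overlapped. The highest library exceeded the lowest by between 1.08 times for Slc11a1 and 1.34 times for Slc11a2. For ferritin the mice still differed by more than counting error. The SD was 9.21% of the mean for Fth1 and 7.11% for Ftl1, where counting error alone gives 0.703% and 0.75%. Of the 7 members with a mean of at least 10 CPM, 0 had 1 library apart from the other libraries by a two-sided range test on log2(CPM + 1), against 354 of 7656 genes (4.62%). With 7 members this count does not set them apart from other genes. Ncoa4 and Tfrc were below 10 CPM and entered neither this test nor the comparisons between cell states.

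Nearly every cell held a ferritin UMI, and under 50% of cells held one of any other member; at this depth a cell with no UMI may still hold the transcript. At least 1 Fth1 UMI was found in 97.1, 99.2, 96.2 and 97.9% of cells, and at least 1 Ftl1 UMI in 95.9, 98.97, 95.5 and 97.6%. Hmox2 was found in 30.7, 45.9, 35.1 and 41.3% of cells, Slc11a1 in 27.5, 39.9, 30.6 and 38.1% and Slc40a1 in 27.0, 35.9, 30.7 and 32.1%. For Hmox2 and Slc40a1 the order of the libraries in shares followed the depth per cell rather than the CPM, and for Slc11a1 depth and CPM gave the same order. With each cell thinned to 1000 UMIs, which left 12737 cells, the mean shares were 17.8 ± 1.06% for Hmox2, 15.4 ± 0.545% for Slc11a1 and 14.8 ± 1.01% for Slc40a1.

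The remaining members were detected rarely. Hmox1 had a UMI in 9.68, 12.9, 7.84 and 11.2% of cells, Slc11a2 in 3.02, 4.42, 4.39 and 4.65%. Ncoa4 was seen in 1.09 to 1.46% of cells and Tfrc in 0.582 to 0.894%. For comparison, Mbp, a myelin transcript of oligodendrocytes that these cells are not known to make, had a UMI in 1.73 to 3.83% of cells, and Snap25, a neuronal transcript, in 0.116 to 0.224%, so the shares of Ncoa4 and Tfrc lay within the range of transcripts carried over as free RNA and are not read as expression by particular cells. Haemoglobin Hbb-bs was at 0 UMIs in every library.

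Of the 5 members with a mean of at least 100 CPM, the ferritin genes had the highest variance over mean from cell to cell. The other 4 members were not ranked. After thinning to 1000 UMIs, the variance of the count over its mean, which is 1 for pure counting noise, was 1.33 for Fth1 and 1.32 for Ftl1, rank 24 and rank 29 among 1563 genes at that level. It was 1.06 for Slc11a1, 1.03 for Slc40a1 and 1.0 for Hmox2, and the median gene stood at 1.02. For the same relative spread this measure is larger in a more abundant gene, and Fth1 and Ftl1 ranked 30 and 34 by level. Genes of like level were not compared, so these values do not show that ferritin varied more than the other members. Across cells, the gene whose count moved most like Ftl1 was Fth1 (Pearson r of log counts, mean of 4 libraries 0.090 ± 0.011 SD), followed by Lyz2, Ctsb, Rps27 and Apoe, which encode lysozyme, cathepsin B, a ribosomal protein and apolipoprotein E. For Fth1 the first was the ribosomal protein gene Rps29 (r = 0.112 ± 0.026), followed by Tmsb4x, Apoe and Lyz2, with Ftl1 at rank 7. The most negative value was that of the nuclear noncoding RNA Malat1 for both, with r = -0.10 for Ftl1 and r = -0.12 for Fth1. For Slc11a1 (with Sub1, Tia1 and Srsf2 among the most alike), Slc40a1 (with Arf6, Mapre1 and Tspan7 among them) and Hmox2 (with Bin1, Snx3 and Lgmn among them) the highest mean r was 0.029, 0.035 and 0.032, which in counts this sparse gives no finding. These are descriptions over cells that share a library and a depth, and carry no test.

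Cell states were then set apart by marker genes, none of which is a member. A cell was counted in a state when, thinned to 1000 UMIs, it held at least 2 UMIs of the state's markers. Cells high in MHC class II, the antigen-presenting complex, numbered 139 (Cd74, H2-Aa, H2-Ab1, H2-Eb1). Cells high in interferon-stimulated genes numbered 217 (Ifit3, Isg15, Irf7 and 9 others). For each state, UMIs were summed per library inside and outside it, and compared with edgeR's quasi-likelihood test with the library as a block, Benjamini-Hochberg adjusted over all genes tested. The 10% of cells with the largest share of UMIs in ribosomal protein genes were compared in the same way with the 10% with the smallest share, and the 10% richest in Malat1 with all other cells, 1274 cells in each. Cells high in genes of disease-associated microglia (DAM; Lpl, Cst7, Lgals3, Spp1, Itgax, Gpnmb) numbered 57, those with border macrophage markers (Mrc1, Pf4 and 6 others) 59, those high in the chemokines Ccl3 and Ccl4 61, and those with at least 6 UMIs of immediate early genes 400; in these states too few libraries held 20 cells, and they were tested with at least 5 cells per library, a minimum chosen after the cell numbers were seen. Proliferation markers were met by 7 cells, which were not tested.

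The states were not pure microglia. At least 3 UMIs of P2ry12 and Tmem119, defining genes of microglia, were present in 56.8% of the MHC class II cells against 97.3% of the rest, in 72.8% against 97.2% for interferon, in 47.4% against 97.0% for DAM genes, in 42.4% against 97.1% for border macrophage markers and in 87.1% of ribosomal-rich against 99.1% of ribosomal-poor cells. The part of these other cells in the differences was not tested beyond the comparisons restricted to cells with these markers. Over all cells of a state, 6 of 6 microglial markers summed to 17036 CPM inside and 30194 outside for MHC class II (library ranges 14321 to 22319 and 29446 to 30873), to 21178 and 30182 for interferon, and to 14771 and 30108 for DAM genes. A list of 4 monocyte markers (Ly6c2, Ccr2, Plac8, Fn1) summed to 632 and 18.5 CPM for MHC class II, 875 and 11.0 for interferon and 1890.5 and 15.7 for DAM genes, and 3 or 4 of the 4 had a UMI inside. Lists of neutrophil, T and NK cell and red cell markers were at 0 throughout. The states also overlapped: 22.3% of MHC class II cells and 36.8% of DAM cells met the interferon rule, and 47.5% and 54.4% were among the ribosomal-rich cells. In the immediate early state 361 of the 400 cells came from replicate 4. The study describes a clog of the sorter, with a second sort, for the last of its 4 mice, which it calls Sample 4. It also reports that nearly all cells with its ex vivo activation signature, which includes the immediate early genes Fos and Jun, came from that mouse. The labels number the libraries in another way, so Sample 4 was not tied to a library here. The calls of members that were lost without replicate 4 are given with each result.

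Of the 7 members tested, 4 passed an adjusted p of 0.05 in MHC class II cells, 3 higher and 1 lower, where 511 of 7652 genes did (6.68%; 333 higher, 4.35%, and 178 lower, 2.33%, or 313 and 297 with library totals in place of TMM scaling). In interferon cells 3 of 7 passed, all higher, against 5.7% of 7651 genes (368 higher, 4.81%, and 68 lower, 0.889%, or 300 and 137 with library totals). In ribosomal-rich cells 4 of 7 passed, 3 higher and 1 lower, against 10.4% of 7574 genes (537 higher, 7.09%, and 248 lower, 3.27%, or 452 and 343), and in Malat1-rich cells 3 of 7, all lower, against 14.4% of 7655 genes (519 higher, 6.78%, and 584 lower, 7.63%, or 907 and 378). In DAM cells 3 of 7 passed, all higher, against 5.94% of 7654 genes (177 higher, 2.31%, and 278 lower, 3.63%, or 263 and 223), and in border macrophage cells 1 of 7, higher, against 2.47% of 7653 genes (1.54% higher). In chemokine cells and in immediate early cells 0 of 7 passed, where 0.261% of 7654 genes (0.144% higher) and 0.0654% of 7647 genes did; 0 and 1 of the 7 had an unadjusted p below 0.05, and DESeq2 also called 0 in both. The members' median log2 fold change was 0.17 in MHC class II cells, 0.22 in interferon cells, 0.999 in DAM cells, 0.13 in ribosomal-rich and -0.22 in Malat1-rich cells, beside -0.11, -0.04, -0.33, -0.01 and 0.02 over all genes tested.

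**Figure D2:**
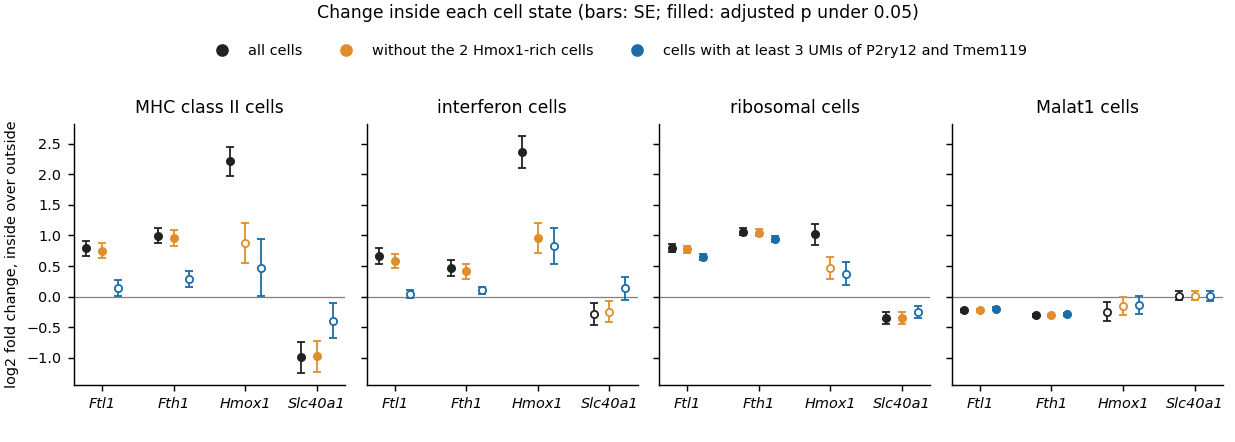
Log2 fold change (inside over outside) of Ftl1, Fth1, Hmox1 and Slc40a1 in MHC class II, interferon, ribosomal-rich and Malat1-rich cells, with the SE of edgeR's fit as bars; colours give all cells, cells without the 2 Hmox1-rich cells, and cells with at least 3 UMIs of P2ry12 and Tmem119, and filled points passed an adjusted p of 0.05. With all cells both ferritin genes lie above 0 in the first 3 states and below 0 in the Malat1-rich cells; in microglial-marker cells the ferritin points of the MHC class II and interferon cells are open.

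Ferritin was higher in the MHC class II cells of every mouse. Fth1 was at 4888, 4971, 4075 and 4707 CPM inside and 2748, 2807, 2312 and 2411 outside, and no inside value overlapped an outside one. The log2 fold change was 0.99 ± 0.12 (SE; adjusted p = 9.67e-14). Ftl1 was at 3503, 3793, 3160 and 3813 CPM inside and 2330, 2470, 2102 and 2162 outside, again without overlap (0.79 ± 0.12; adjusted p = 1.06e-08). The ratio of Ftl1 to Fth1 was lower inside, 0.717, 0.763, 0.776 and 0.810, than outside, 0.848, 0.880, 0.909 and 0.897, so the heavy chain carried more of the difference in each library, a contrast that was not tested on its own. In the 79 of these cells with at least 3 UMIs of P2ry12 and Tmem119, compared with other such cells (a restriction added to each state after its markers were seen), the log2 fold change was 0.29 for Fth1 (adjusted p = 0.709) and 0.15 for Ftl1 (adjusted p = 0.936), and neither passed. That fit required at least 5 such cells per library in place of 20, and 19 of 7652 genes passed in it. With cells thinned to 1000 UMIs, where the median over all genes was -0.42, both calls were also lost (0.47 and adjusted p = 0.0606 for Fth1, 0.36 and adjusted p = 0.264 for Ftl1).

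In interferon cells the differences were smaller in value and less even among the libraries, a contrast between states that was not tested. Ftl1 was at 3443, 2715, 3251 and 3879 CPM inside against 2313, 2477, 2093 and 2169 outside, higher in every library and least so in replicate 2 (log2 fold change 0.66 ± 0.13; adjusted p = 0.000196). With thinned cells it missed the threshold (0.40; adjusted p = 0.0573). Fth1 was at 3103, 2622, 3084 and 4579 CPM against 2762, 2827, 2317 and 2425, higher in 3 of 4 libraries and lower in replicate 2 (0.46 ± 0.13; adjusted p = 0.0243). The ratio of Ftl1 to Fth1 was 1.11, 1.04, 1.05 and 0.847 inside and 0.838, 0.876, 0.903 and 0.894 outside. The Fth1 call was lost in 10 of the 14 alternative settings named with the methods, among them without the library block (adjusted p = 0.0748), with DESeq2 (adjusted p = 0.114) and when replicate 1, 3 or 4 was left out (adjusted p = 0.128, 0.211 and 0.464), and its adjusted p over all 14 ran from 9.83e-14 to 0.504. Among the 158 interferon cells with microglial markers the log2 fold changes were 0.04 for Ftl1 (adjusted p = 0.999) and 0.10 for Fth1 (adjusted p = 0.863).

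The DAM cells had the highest mean ferritin level of the states compared. Ftl1 was at 7219, 7900, 5398 and 7590 CPM inside and 2315, 2462, 2088 and 2160 outside, between 2.59 and 3.51 times higher in the same library (log2 fold change 1.51 ± 0.23; adjusted p = 1.09e-08). Fth1 was at 4462, 6613, 4423 and 7231 CPM inside and 2761, 2811, 2314 and 2429 outside, between 1.62 and 2.98 times higher (0.999 ± 0.23; adjusted p = 0.000734). Here, as in the interferon cells of every library but replicate 4, the light chain was the more abundant. Over all 57 cells Ftl1 was at 7074 CPM (exact Poisson 95% interval 6703 to 7460) and Fth1 at 5890 CPM (5552 to 6243). In the 27 DAM cells with at least 3 UMIs of P2ry12 and Tmem119, Ftl1 still passed (0.90 ± 0.19; adjusted p = 0.0011) and Fth1 did not (0.47 ± 0.19; adjusted p = 0.271). Without replicate 4 the Fth1 call was lost (0.76; adjusted p = 0.0604), while Ftl1 passed with each library left out in turn. With cells thinned to 1000 UMIs, where the median over all genes was -0.93, Fth1 did not pass either (0.32; adjusted p = 0.37). The 57 DAM cells held 1134 Fth1 and 1362 Ftl1 UMIs in all. A cell of replicate 4 rich in Hmox1, described below, held 113 and 103 of them, and such a cell of replicate 3 held 28 and 50.

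**Figure D3:**
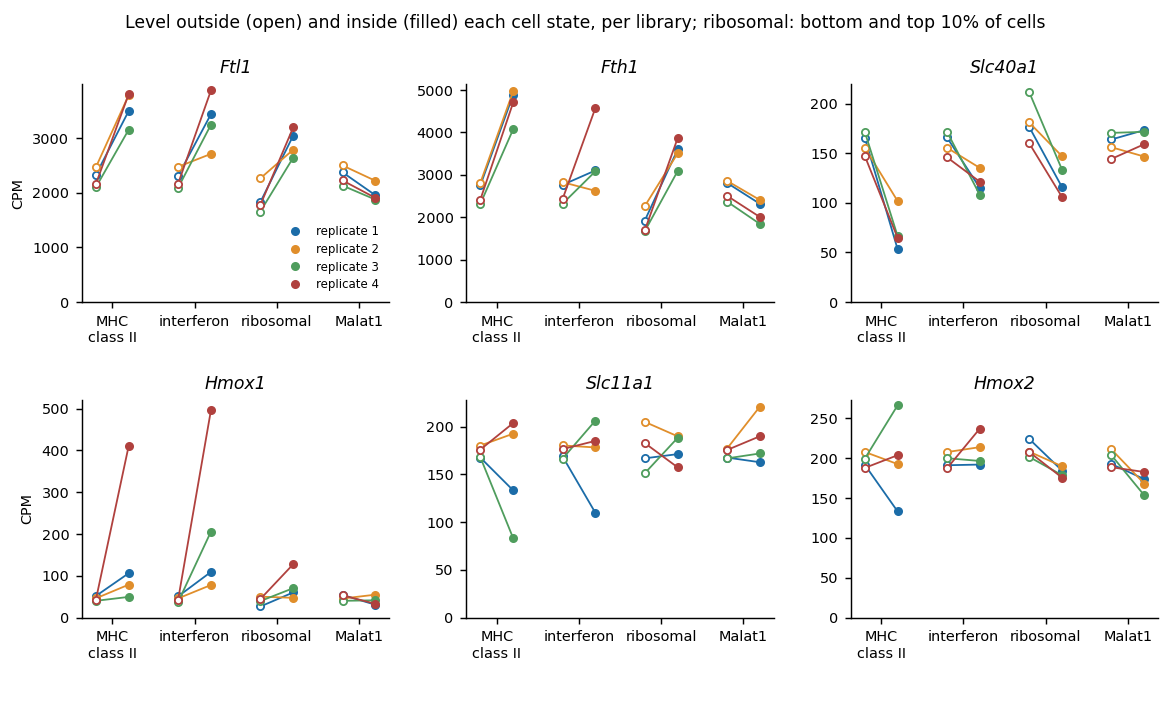
CPM of 6 members outside (open) and inside (filled) the MHC class II, interferon, ribosomal-rich and Malat1-rich cells, with a line joining the points of 1 library; for the ribosomal comparison the open points are the ribosomal-poor cells. The filled points of Ftl1 and Fth1 lie above all open points in MHC class II and in ribosomal-rich cells, and those of Slc40a1 lie below all open points there.

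Border macrophage cells also carried more ferritin in each of the 4 libraries. Fth1 was at 6016, 4454, 3500 and 5251 CPM inside and 2762, 2811, 2315 and 2428 outside (log2 fold change 0.81 ± 0.24; adjusted p = 0.0379). Ftl1 was at 4389, 3292, 3315 and 5202 CPM against 2337, 2474, 2097 and 2161 (0.75 ± 0.24; adjusted p = 0.0647) and did not pass. With 6 to 31 cells per library these calls were unstable: Fth1 lost its call without replicate 2, 3 or 4 (adjusted p = 0.405, 0.486 and 0.143), Ftl1 gained one with library totals (adjusted p = 0.000615), and over the alternative settings the adjusted p of Fth1 ran from 0.000166 to 0.843. In cells with at least 3 UMIs of P2ry12 and Tmem119, replicate 1 kept too few cells and was dropped, and in the 23 cells of the other libraries both genes passed (0.52 ± 0.10 and adjusted p = 0.000115 for Fth1, 0.63 ± 0.11 and adjusted p = 6.8e-07 for Ftl1).

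Ferritin was higher in cells with a larger share of ribosomal protein transcripts. In the ribosomal-rich cells Fth1 was at 3598, 3507, 3088 and 3864 CPM and in the ribosomal-poor cells at 1920, 2261, 1671 and 1689 (log2 fold change 1.06 ± 0.06; adjusted p = 7.37e-27). Ftl1 was at 3050, 2792, 2646 and 3201 CPM against 1829, 2266, 1658 and 1777 (0.79 ± 0.06; adjusted p = 1.71e-19). Neither gene overlapped between the 2 ends. With microglial-marker cells alone, both still passed, at 0.94 ± 0.05 for Fth1 and 0.64 ± 0.05 for Ftl1. With the cells of each library divided into 10 equal bins by ribosomal share, mean Fth1 went from 1883 CPM in the lowest bin to 2469 in bin 5, 2908 in bin 9 and 3509 in bin 10, and mean Ftl1 from 1881 to 2208, 2402 and 2916. The 2 chains were thus about equal in ribosomal-poor cells, with an Ftl1 to Fth1 ratio of 0.953, 1.002, 0.992 and 1.05, and unequal in ribosomal-rich cells, at 0.848, 0.796, 0.857 and 0.828. Ribosomal-rich cells were also deeper (median 2623 against 2060 UMIs), which the thinned comparison of cells at 1000 UMIs sets equal: it gave 1.02 for Fth1 and 0.76 for Ftl1. Markers of other cells and states moved with the same contrast. Over all cells of each end, the 4 MHC class II markers summed to 4364 CPM in ribosomal-rich and 71.7 CPM in ribosomal-poor cells (library ranges 1659 to 9038 and 47.2 to 115.7), the 8 border macrophage markers to 248 and 22.1 CPM (66.04 to 585 and 14.7 to 27.9) and the 4 monocyte markers to 185 and 9.05 CPM (40.1 to 329 and 6.3 to 13.1), each with a UMI of every gene in the ribosomal-rich cells. The median mitochondrial share was 1.56% against 1.01%. The part of these in the result was not tested beyond the microglial-marker cells.

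**Figure D4:**
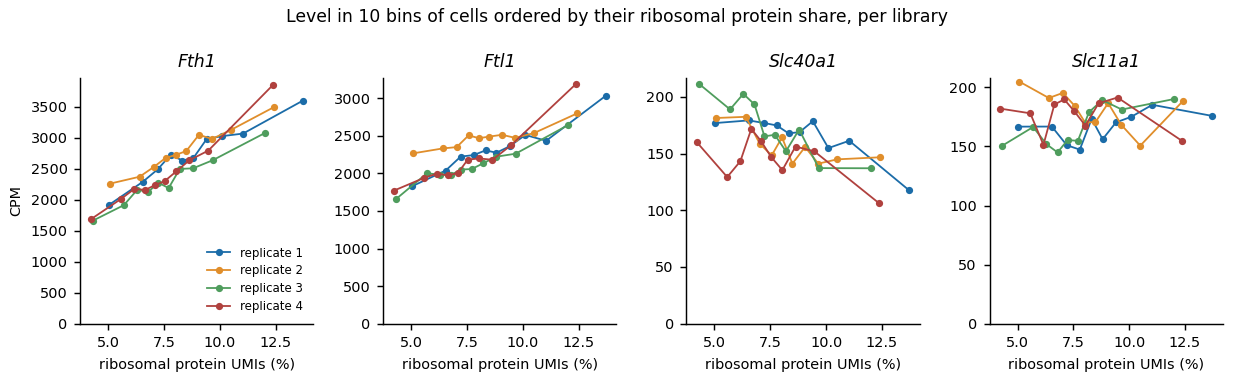
CPM of Fth1, Ftl1, Slc40a1 and Slc11a1 in 10 bins of cells ordered by the share of UMIs in ribosomal protein genes (x axis, in percent), 1 line per library. The mean of Fth1 goes from 1883 to 3509 CPM and that of Ftl1 from 1881 to 2916, while Slc40a1 goes from 182 to 127 and Slc11a1 from 176 to 177.

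Both ferritin genes fell in Malat1-rich cells, the one state in which either passed as lower. Fth1 was at 2316, 2406, 1841 and 2004 CPM inside and 2810, 2858, 2370 and 2506 outside, lower in every library by a similar amount (log2 fold change -0.31 ± 0.03; adjusted p = 6.26e-19). Ftl1 was at 1956, 2220, 1876 and 1907 CPM against 2376, 2502, 2132 and 2227 (-0.22 ± 0.03; adjusted p = 1.44e-11). Hmox2 was at 174, 168, 153 and 183 CPM against 193, 211, 204 and 189 (-0.24 ± 0.07; adjusted p = 0.0155). The inside and outside ranges overlapped for Fth1 and Ftl1, since the mice differed among themselves by as much, and did not for Hmox2. Without the library block none of the 3 passed (adjusted p = 0.0647 for Fth1, 0.102 for Ftl1 and 0.116 for Hmox2). The Hmox2 call was lost in 9 of the 14 alternative settings named with the methods, among them also without replicate 2 or 3 and with DESeq2. Malat1-rich cells held a median of 1890 UMIs against 2521, and a ribosomal share of 7.01% against 8.30%; the part of these in the result was not tested.

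Ferroportin went the other way from ferritin in MHC class II cells. Slc40a1 was at 53.3, 102, 66.5 and 64.8 CPM inside and 166, 156, 172 and 148 outside, lower in each library and without overlap (log2 fold change -0.99 ± 0.25; adjusted p = 0.00241). The count inside was small, 31 UMIs over the 139 cells (70.5 CPM, interval 47.9 to 100.1). The call was lost in 4 of the 12 alternative settings named with the methods, where the adjusted p ran from 0.000429 to 0.177. Among these were leaving out replicate 4 (-1.02; adjusted p = 0.0621), which held 65 of the cells, and DESeq2 (-0.95; adjusted p = 0.0803). In the 79 cells with microglial markers 30 of these 31 UMIs remained, at 128 CPM against 159 in other microglial-marker cells, and the difference did not pass (-0.39 ± 0.29; adjusted p = 0.918). The 60 MHC class II cells with fewer UMIs of P2ry12 and Tmem119 thus held 1 Slc40a1 UMI in all, which gives a count and no test.

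The same was seen, smaller, along the ribosomal share. Slc40a1 was at 115.8, 147, 134 and 106 CPM in ribosomal-rich and 177, 181, 212 and 160 CPM in ribosomal-poor cells, again without overlap (log2 fold change -0.36 ± 0.10; adjusted p = 0.00924). That call was lost without the library block (adjusted p = 0.067), without replicate 3 (0.0802) or replicate 4 (0.0581), and in microglial-marker cells (-0.24; adjusted p = 0.134), with a range of 0.00316 to 0.384 over the alternative settings named with the methods. In interferon cells Slc40a1 was lower in 4 of 4 libraries, 120 against 160 CPM on average, and did not pass (-0.28 ± 0.17; adjusted p = 0.493). In DAM cells 16 UMIs were counted (83.1 CPM, interval 47.5 to 135, against 158 CPM outside), with 232 CPM in replicate 2 and 22.7 to 57.4 in the other libraries (-1.03 ± 0.38; adjusted p = 0.0874); without replicate 2 it passed (-1.84; adjusted p = 0.00494).

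Hmox1, which opens the haem ring and is induced by haem and oxidative stress, was spread thinly over 1377 cells, and 2 cells stood apart. Of 13002 cells, 11625 held no Hmox1 UMI, 1252 held 1, 111 held 2 and 12 held 3 or 4, and 2 cells held at least 5. A cell of replicate 4 held 75 Hmox1 UMIs among 4112, which made Hmox1 its 4th most abundant gene after Fth1 (113 UMIs, rank 2) and Ftl1 (103 UMIs, rank 3) and the leading gene. That cell held no P2ry12 and no Tmem119, 48 UMIs of Cd74 and 24 of Lgals3, and it met the MHC class II, interferon, DAM and ribosomal-rich rules. A cell of replicate 3 held 15 Hmox1 UMIs among 5699, with 50 of Ftl1, 28 of Fth1, 18 of Lgals3 and 1 each of P2ry12 and Tmem119, and met the interferon, DAM and ribosomal-rich rules. Neither held a UMI of Mrc1, Pf4, Cd163 or Hbb-bs. Of the other DAM markers, neither held a UMI of Lpl, Cst7, Spp1 or Itgax. Gpnmb had 1 UMI in the cell of replicate 4 and 0 in that of replicate 3, so nearly all their DAM marker UMIs were of Lgals3. Together they held 5.62% of all 1602 Hmox1 UMIs, and they were chosen after their values were seen.

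**Figure D5:**
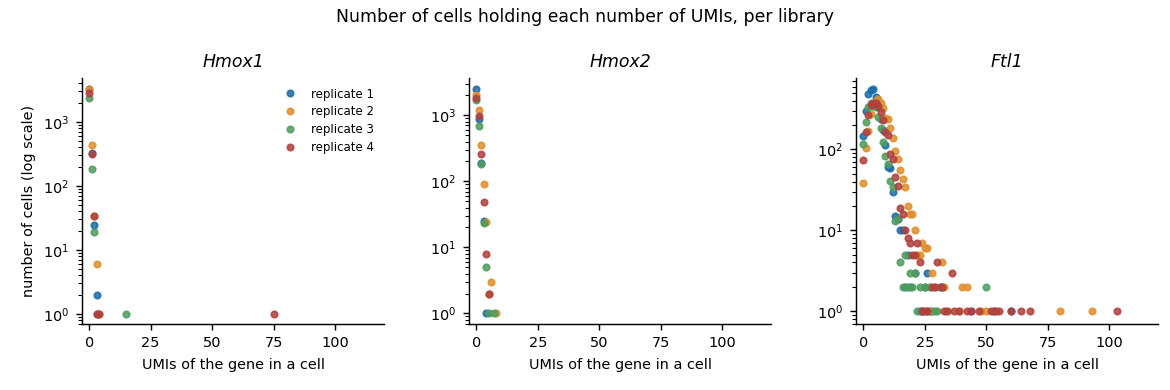
Number of cells (log axis) that hold each number of UMIs of Hmox1, Hmox2 and Ftl1, with a point per library in its colour. For Hmox1 all cells but 2 hold at most 4 UMIs, and the 2 cells at 15 and 75 UMIs stand apart; Hmox2 ends at 8 UMIs and Ftl1 reaches 103.

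Those 2 cells carried the size of the Hmox1 differences between states. In MHC class II cells Hmox1 was at 107, 79.3, 49.9 and 412 CPM inside and 52.1, 46.4, 40.5 and 43.1 outside, higher in 4 of 4 libraries and highest in replicate 4 (log2 fold change 2.21 ± 0.24; adjusted p = 6.35e-18). Without them it was 73.5 CPM inside (interval 50.3 to 104) against 45.2 outside, and no longer passed (0.88 ± 0.33; adjusted p = 0.0955), nor did it without replicate 4 (0.87; adjusted p = 0.356). In DAM cells Hmox1 was at 75.2, 77.2, 408 and 1191 CPM inside and 52.5, 46.6, 37.7 and 43.1 outside (3.02 ± 0.32; adjusted p = 5.78e-19), and without them at 93.03 CPM (interval 54.2 to 149), which did not pass (0.93 ± 0.47; adjusted p = 0.318). In ribosomal-rich cells it was at 60.6, 47.7, 70.8 and 128 CPM against 26.9, 50.4, 39.9 and 44.7 (1.02 ± 0.17; adjusted p = 3.47e-06), and without them it did not pass (0.46 ± 0.18; adjusted p = 0.0864).

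Of these 4 states, interferon cells were the one in which the Hmox1 difference passed with and without them. Hmox1 was at 110, 78.4, 206 and 497 CPM inside and 51.1, 46.3, 37.6 and 43.2 outside, each library higher (log2 fold change 2.37 ± 0.27; adjusted p = 5.44e-09). Without the 2 cells it was 81.7 CPM inside (interval 60.2 to 108) against 44.95 outside, from 48 UMIs in 215 cells (0.96 ± 0.25; adjusted p = 0.00956). In the 158 interferon cells with microglial markers it was 79.6 CPM against 44.1, higher in 4 of 4 libraries, and did not pass (0.83 ± 0.30; adjusted p = 0.295). The alternative settings named with the methods, of which leaving out replicate 3, replicate 4 or the 1% of cells with the most UMIs removes 1 of the 2 cells, gave an adjusted p between 7.28e-38 and 0.0168.

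The importers and Hmox2 did not pass in the MHC class II, interferon or ribosomal comparisons. Slc11a1 was at 133, 192, 83.2 and 204 CPM in MHC class II cells and 168, 180, 168 and 176 outside (log2 fold change 0.10 ± 0.20; adjusted p = 0.912), and in interferon cells at 110, 178, 206 and 185 against 169, 180, 166 and 176 (0.05 ± 0.17; adjusted p = 0.945). At the 2 ends of the ribosomal share it was 177 ± 15.4 and 176 ± 23.0 CPM. Hmox2 was at 133, 192, 266 and 204 CPM in MHC class II cells against 192, 208, 199 and 188 outside (0.17 ± 0.19; adjusted p = 0.790). Slc11a2 rested on 5 UMIs in MHC class II cells, 6 in interferon cells and 10 in DAM cells, where it was at 0, 103, 45.4 and 57.4 CPM against 15.98, 14.6, 19.6 and 16.3 (1.55 ± 0.66; adjusted p = 0.169). Tfrc was at 0 UMIs in MHC class II and in border macrophage cells, which at this depth allows up to 3 UMIs in all.

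In chemokine and immediate early cells, whose microglial-marker shares were 83.6% and 95.5%, no member passed. Over all cells of the state, Fth1 was at 2854 CPM (interval 2606 to 3119) in chemokine cells against 2628 outside, and at 2434 (2344 to 2527) in immediate early cells against 2636; Ftl1 was at 2608 (2371 to 2862) against 2310 and at 2256 (2170 to 2346) against 2313. The log2 fold changes of the 2 ferritin genes were -0.10 ± 0.17 and -0.09 ± 0.18 in chemokine cells, and -0.16 ± 0.20 and -0.42 ± 0.20 in immediate early cells. In chemokine cells the median over all genes tested was -0.26, and with library totals, where that median was -0.02, the Ftl1 value turned to 0.26. The 7 cells with proliferation markers held 94 Fth1 UMIs (3454 CPM, interval 2791 to 4227) and 43 Ftl1 UMIs (1580 CPM, 1144 to 2128), with no test.

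The wider iron pathway was read from a list of 47 other genes, of which 27 reached 10 CPM. Transferrin itself, Trf, was at 1124 ± 40.4 CPM, below both ferritin genes and above the other 7 members. Hfe, which binds the transferrin receptor, was at 176 ± 8.42, and Slc39a8, an importer of zinc, manganese and iron, at 29.8 ± 2.0. The iron chaperones Pcbp1 and Pcbp2, which hand iron to ferritin, were at 305 ± 5.91 and 175 ± 5.48 CPM. Of the genes that sense iron, Aco1 and Ireb2, which encode the iron regulatory proteins, were at 14.2 ± 3.48 and 11.6 ± 1.30, and Fbxl5, which marks one of them for breakdown, at 37.2 ± 4.26. The haem-handling genes Blvra and Blvrb, the biliverdin reductases that act after haem oxygenase, were at 65.4 ± 2.62 and 82.8 ± 6.24. Gpx4, which guards against lipid peroxidation, was at 297 ± 15.3. Tfr2, Steap2, Steap4, Heph and Hamp2 were listed at 0 UMIs, and Hamp, which encodes hepcidin, had 1.

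Between 0 and 2 of these 27 genes passed in MHC class II, interferon, DAM and border macrophage cells, where 6.68, 5.7, 5.94 and 2.47% of all genes tested did, and nothing is read from counts this small. In MHC class II cells 0 of 27 passed edgeR's test or DESeq2's and 4 had an unadjusted p below 0.05 in edgeR, with a median log2 fold change of -0.12 beside -0.11 over all genes tested. In interferon cells 1 passed: Blvrb was at 115, 71.2, 206 and 127 CPM inside and 80.1, 92.4, 78.2 and 77.2 outside (0.73 ± 0.22; adjusted p = 0.0313), higher in 3 of 4 libraries. Blvrb was also the single gene of the list that passed in border macrophage cells, at 247, 185, 330 and 288 CPM against 80.5, 91.3, 77.1 and 75.3 (1.71 ± 0.24; adjusted p = 3.79e-10). In DAM cells 2 passed. Iscu, a scaffold for iron-sulphur clusters, was at 175, 77.2, 204 and 143 CPM against 284, 300.0, 291 and 288 (-1.05 ± 0.31; adjusted p = 0.0196). Txnrd1, a thioredoxin reductase, was at 50.1, 412, 45.4 and 28.7 CPM against 24.5, 22.7, 24.8 and 24.7 (2.15 ± 0.47; adjusted p = 0.000267), so replicate 2 set the size of its difference.

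Along the ribosomal share 4 of the 27 were higher and 1 lower, where 7.09% of all genes tested were higher and 3.27% lower. Gpx4 was at 299, 337, 315 and 306 CPM in ribosomal-rich and 243, 264, 237 and 276 in ribosomal-poor cells (log2 fold change 0.45 ± 0.08; adjusted p = 6.51e-06). Blvrb (0.55 ± 0.13), Pcbp2 (0.33 ± 0.10) and Trf (0.24 ± 0.06) were higher and Txnrd1 was lower (-0.86 ± 0.23), with adjusted p between 0.0018 and 0.0147. In Malat1-rich cells 3 of the 27 passed, against 14.4% of all genes tested: Trf (-0.29 ± 0.03; adjusted p = 3.74e-11) and Gpx4 (-0.25 ± 0.06; adjusted p = 0.00149) were lower and Acsl4, an enzyme of membrane lipid synthesis, was higher (0.57 ± 0.20; adjusted p = 0.0339). Without replicate 4 the calls of Blvrb in interferon cells, Iscu in DAM cells, Pcbp2 in ribosomal-rich cells and Acsl4 and Gpx4 in Malat1-rich cells were lost (adjusted p between 0.0536 and 0.129). None of these changes in the ribosomal or Malat1 comparisons reached the ratio that Fth1 showed in the ribosomal comparison.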

How the data were processed

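The authors sequenced 4 libraries made with the 10x Genomics 3′ kit and deposited whole-number UMI counts per gene and cell, with cells already called; Cell Ranger 2.2.0, bcl2fastq, Seurat and the builds GRCm38 and mm10 are named in the submitters' processing notes. The deposited counts are not normalized. Per the study's methods PBS was given at another interval than per the labels; the labels' value is used.

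The kept cells, with 400 or more detected genes and no more than 10% of UMIs from mitochondrial genes, numbered 3576, 3692, 2576 and 3158 per library with 7055985, 11267195, 5841671 and 9000804 UMIs. Library pairs shared 6 to 21 barcodes before this filter. No doublet caller was run. CPM is UMIs of a gene per 1000000 UMIs; intervals are exact Poisson or Clopper-Pearson at 95% and cover counting error only. Genes at a mean of 10 CPM were tested with edgeR 4.0.16 (R 4.3.3) on summed counts, TMM scaled, at an adjusted p of 0.05; DESeq2 1.42.0, library totals, a 1 CPM filter, no library block, an added log2 fold minimum of 0.58, a minimum of 1000 genes, thinned counts, other state thresholds, states without the border macrophage cells (non-overlapping states), removal of the 1% of cells with the most UMIs and leaving out each library were alternatives. The library is a block because both sums come from the same mouse. The 85 ribosomal protein genes and the markers of a state were left out of its test. The edgeR script was tested on simulated counts. Ranks by likeness took genes at 100 CPM.

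All 9 members are described. Of the 47 other iron genes those that passed in a comparison were named, at most the 5 with the largest change, beside levels of some of each group. Members, lists and states were chosen with earlier results of these data known. Marker lists for microglia, monocytes, oligodendrocytes, neutrophils, T and NK cells and red cells are given with the results; B cell, neuron, astrocyte and endothelial lists summed to at most 51.1, 1.7, 5.0 and 0.7 CPM in any library. UTR sequences and coordinates are from GENCODE on GRCm38. Of the disease-associated microglia markers, Clec7a is not analysed here.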

Additional observations from a re-analysis of the deposited data

Results flagged for a closer look

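Of 113 values screened for 1 library far from the other 3, 9 were flagged (7.96%), where chance flags about 1 in 20. They are given as values, and no explanation was tested. The share of cells with a Slc11a2 UMI was 3.02% in replicate 1, and the nearest library was at 4.39%. The ratio of Slc11a1 to Slc11a2 in ribosomal-rich cells was 18.9 in replicate 2 and at most 11.1 in the other libraries. Hmox1 in MHC class II cells was at 412 CPM in replicate 4, which held the cell with 75 Hmox1 UMIs, and at most 107 CPM elsewhere. In DAM cells Slc11a1 was at 618 CPM in replicate 2 with the nearest library at 159, and Slc40a1 was at 232 CPM in replicate 2 with the nearest at 57.4; that library held 12 such cells. MHC class II cells made up 2.11% of cells in replicate 4 and at most 0.858% in the other libraries. Immediate early cells made up 11.7% of replicate 4 and at most 0.545% elsewhere, and the summed immediate early markers were at 2665 CPM in replicate 4 and at most 1187 elsewhere. The summed oligodendrocyte markers were at 19.2 CPM in replicate 4 and at most 11.9 elsewhere.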

How the results depend on the processing

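Sparse counts limit the states: MHC class II cells held 31 Slc40a1 UMIs and 5 Slc11a2 UMIs, and MHC class II cells were not refitted at 1000 genes per cell or at a higher marker threshold, since fewer than 3 libraries then held 20 cells. The number of members at 100 CPM (5) and the number with 1 library apart (0) were the same in every alternative; members in at least 25% of cells went from 5 to 2 with thinned cells. Of 98 values of single genes under other settings in MHC class II cells 12 lost their call, in interferon cells 26 of 128, in ribosomal-rich cells 32 of 192, in Malat1-rich cells 27 of 160 and in DAM cells 17 of 144, and 1 called value changed direction: Txnrd1 in DAM cells with microglial markers, at -9.60 (edgeR adjusted p = 0.451). The cause of the shifts was not tested.

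Members called in MHC class II cells went from 4 to 2 with thinned cells and 0 in microglial-marker cells, and from 2 to 4 without 1 library, the low value being without replicate 4. In interferon cells 3 became 1 with thinned cells and 0 in microglial-marker cells, with 2 to 3 without 1 library, and in ribosomal-rich cells 4 became 2 in both, with 3 to 4. In Malat1-rich cells 3 became 0 without the replicate block and 0 with the 0.58 fold minimum, with 2 to 3 without 1 library. In DAM cells 3 became 1 in microglial-marker cells, with 2 to 4 without 1 library. In border macrophage cells 1 became 2 with DESeq2, library totals, no replicate block, 1000 genes per cell or microglial-marker cells, and 0 with the 1 CPM filter, thinned cells, the other threshold or without the 2 Hmox1-rich cells, with 0 to 2 without 1 library.

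Other iron genes called in MHC class II cells went from 0 to 1 with library totals, the 1 CPM filter or thinned cells, with 0 to 1 without 1 library. In interferon cells 1 became 2 with the 1 CPM filter and 0 with DESeq2, library totals, 1000 genes per cell, thinned cells, the other threshold, removal of the 1% deepest cells, non-overlapping states or microglial-marker cells, with 0 to 2 without 1 library. In ribosomal-rich cells 5 became 1 with DESeq2, 3 without the replicate block, 1 with the fold minimum and 2 with thinned cells, with 2 to 6 without 1 library. In Malat1-rich cells 3 became 1 without the block, 0 with the fold minimum and 6 with the other threshold, with 1 to 4. In DAM cells 2 became 0 with DESeq2, 5 with the 1 CPM filter and 0 in microglial-marker cells, and 1 with each library left out in turn; in border macrophage cells 1 became 3 with the 1 CPM filter, and in chemokine cells 0 became 1 with library totals.

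Over all genes, calls in MHC class II cells numbered 511, and 199 with thinned cells, 214 without the deepest 1%, 265 with non-overlapping states, 308 without replicate 4 and 19 in microglial-marker cells. In interferon cells they numbered 436, and 163 thinned and 74 in microglial-marker cells, with 267 to 641 without 1 library. In ribosomal-rich cells they numbered 785, and 259 with DESeq2, 308 with the fold minimum, 422 thinned and 493 without the block. In Malat1-rich cells they numbered 1103, and 441 with DESeq2, 284 without the block, 115 with the fold minimum, 538 thinned and 611 at 1000 genes per cell. In DAM cells they numbered 455, and 274 with DESeq2, 227 with the other threshold, 87 in microglial-marker cells and 149 to 395 without 1 library. In border macrophage cells they numbered 189, and 117 with DESeq2, 309 with the 1 CPM filter, 73 with the other threshold, 120 in microglial-marker cells and 60 to 178 without 1 library. In chemokine cells they numbered 20 and ran from 7 to 71, and in immediate early cells 5 and from 1 to 15. Thinning moved the median log2 fold change over all genes from -0.11 to -0.42 in MHC class II cells and from -0.33 to -0.93 in DAM cells, so its values are relative to that shift.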
